A study of Mus musculus with 5 samples.

Results

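The Ccr2-ligand chemokines described here are 4 genes, Ccl2, Ccl7, Ccl12 and Ccl8, taken by name from the 28692 gene IDs that the droplet count matrices list. The rule that names them uses no measured value, but they were chosen with earlier results of these data known. All 4 were found, and their raw counts of unique molecular identifiers (UMIs, one tag per captured RNA molecule) were read by library and by the class of cell that held them.

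Chemokines are small secreted proteins that steer leukocytes through G protein-coupled receptors. Ccr2 is the receptor that inflammatory monocytes use to leave the bone marrow and to enter injured tissue, and the obstructed kidney is a classic setting in which Ccr2 and its ligands draw in the cells that become macrophages. Ccl2 is the best known ligand of Ccr2. Ccl7 binds Ccr2 and also Ccr1 and Ccr3, Ccl12 is a mouse ligand of Ccr2, and mouse Ccl8, from the same gene cluster, is also known as a ligand of Ccr8.

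The study followed the kidney of 8-week C57/BL6 mice through a unilateral ureteric obstruction (UUO), the closing of 1 ureter, that was later reversed. The 4 droplet libraries were a sham operation counted as day 0, obstruction for 2 days, obstruction for 7 days, and a library called reversed here, taken 7 days after the obstruction was released, on experimental day 14. Every library pooled the kidney cells of 3 mice after digestion in the cold and a sort for live cells with the dye DAPI, and there was 1 library per condition. A further sample of 768 Smart-seq2 wells on 8 plates mixed all time points. Because a condition had 1 library, no test between conditions could be run: the intervals below are exact 95% intervals for counting error only, and a difference between 2 libraries is not separated from the differences between pools of mice.

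The libraries held 2739 to 5938 cells with a median of 2480.5 to 5668 UMIs, and 2159 to 4287 cells were kept. The median share of mitochondrial UMIs differed, from 40.6% in sham and 14.0% to 16.2% on day 2 and after reversal to 3.00% on day 7. Pairs of libraries shared 16 to 39 cell barcodes, at most 0.974% of the smaller library. Cells were put into classes by marker genes that include none of the 4 chemokines: mononuclear phagocytes, tubule, endothelium, stroma, and other lymphocyte and rare classes. The gated phagocytes numbered 61, 549, 2426 and 624 in time order, from sham to the reversed library, and their median cell held 75.0% to 91.7% of the 12 phagocyte markers. Stroma was thin, with 17, 15, 68 and 90 cells in the same order, so it is given by UMIs in sham and on day 2.

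The 4 genes lie on the plus strand of chromosome 11 (GRCm38, GENCODE M21) within 81.2 kb, and each is a protein-coding gene with 3 exons. Ccl2 spans 82035571 to 82037453 and Ccl7 spans 82045712 to 82047525, followed by Ccl12 from 82101845 to 82103400 and Ccl8 from 82115185 to 82116799. Their transcripts are 813, 801, 537 and 511 bases long. A UMI counts 1 molecule near the 3′ end whatever the transcript length, so UMI levels were not divided by length. The genes are related in sequence, and how reads that match more than 1 of them were counted is not given in the sources used here.

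The RefSeq promoter table (GRCm38.p6) held Ccl12 and Ccl8, the neighbours at the far end of the cluster whose levels took different courses in the phagocytes described below. The 250 bases before each start are printed so that this pair can be compared, Ccl12 from chr11:82101595-82101844 and Ccl8 from chr11:82114935-82115184, plus strand. Capitals mark TATAAA, the TATA box.
Ccl12: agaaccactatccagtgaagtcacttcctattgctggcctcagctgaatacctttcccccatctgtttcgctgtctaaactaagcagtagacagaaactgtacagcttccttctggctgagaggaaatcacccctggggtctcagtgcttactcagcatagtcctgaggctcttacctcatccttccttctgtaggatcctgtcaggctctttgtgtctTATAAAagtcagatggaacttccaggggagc
Ccl8: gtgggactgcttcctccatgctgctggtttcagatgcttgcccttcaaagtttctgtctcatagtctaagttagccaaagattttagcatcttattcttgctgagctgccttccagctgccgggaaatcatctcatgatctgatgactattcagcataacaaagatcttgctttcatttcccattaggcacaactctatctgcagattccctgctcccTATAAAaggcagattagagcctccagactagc
The box starts 31 bases before the start of Ccl12 and 32 bases before that of Ccl8. TATAAA was found on either strand in 13.6% of the 32851 promoters of the table, searched over the same 300 bases. The AP-1 site TGANTCA (in 7.81% of promoters), the STAT site TTCNNNGAA (8.30%), the interferon-stimulated response element (3.44%) and the NF-kB consensus (4.51%) were not found in either window of 300 bases. Ccl2 and Ccl7 are named only.

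Phagocytes held most of the ligand RNA in every library. Of the UMIs of the 4 genes in kept cells, gated phagocytes held 93 of 109 in sham, or 85.3% (77.3% to 91.4%), although they were 1.63% of the cells. On day 2 they held 94.1% of 9178 UMIs as 25.4% of the cells, and on day 7 they held 93.5% of 28572 UMIs as 56.6% of the cells. After reversal the share was 82.3% of 5755 UMIs, from 19.9% of the cells. Ccl12 and Ccl8 stayed close to phagocytes after reversal, at 92.9% and 89.3% of their UMIs. Ccl2 was less so, with 62.2% (59.6% to 64.7%), and of its 1447 UMIs 336 lay in ungated cells, those with no clear leading class (228 of them in 1 cell), 139 in tubule and 58 in stroma.

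Ccl2, the main monocyte attractant, peaked on day 2 in phagocytes. Its level was 144 CPM (99.3 to 203) in sham, where CPM is UMIs per 1000000 UMIs of the class, and then 661 (641 to 682) on day 2, 255 (248 to 263) on day 7 and 183 (171 to 195) after reversal. Day 2 stood above the other 3 libraries, while sham and the reversed library overlapped in their intervals. The sham level rested on 33 UMIs, 30 of them in 2 cells of the dendritic subset with 15 each, and sham macrophages held 0. On the log2(CPM + 1) scale Ccl2 was higher on day 2 than in sham by 2.19 (1.70 to 2.73) and lower on day 7 than on day 2 at -1.37 (-1.43 to -1.31).

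Ccl7, which shares receptors with Ccl2, was listed with 0 UMIs in the 61 sham phagocytes. A floor of 3 UMIs is 13.1 CPM there, and the exact interval of the 0 reaches 16.1 CPM. It stood at 343 CPM (328 to 358) on day 2, 237 (230 to 244) on day 7 and 166 (155 to 178) after reversal. All 3 later libraries were thus above the sham floor, in descending order, with intervals that did not overlap. Against that floor, set for the library, Ccl7 was 26.1-fold higher on day 2 and 12.6-fold higher after reversal. The log2 ratios to sham had lower limits of 4.33 and 3.28, which are smaller folds than these.

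Ccl12 was the ligand with a level in sham macrophages, the resident phagocytes of the uninjured organ. Its phagocyte level was 262 CPM (200 to 338) in sham, 405 (389 to 422) on day 2, 748 (735 to 761) on day 7 and 357 (340 to 374) in the reversed library. All 60 sham UMIs lay in macrophages, 66.7% of them in 4 of 32 cells. It peaked on day 7, later than Ccl2 and Ccl7, and the reversed library overlapped neither day 7 nor day 2. The log2 ratio was 0.63 (0.26 to 1.02) on day 2 over sham, 0.88 (0.82 to 0.94) on day 7 over day 2, and -1.06 (-1.14 to -0.99) after reversal over day 7.

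Ccl8 came last. Phagocytes held 0 UMIs in sham, 84 on day 2 at 13.8 CPM (11.0 to 17.1), 5594 on day 7 at 328 CPM (320 to 337), and 1258 after reversal at 255 CPM (241 to 270). Day 2 was close to the sham floor of 13.1 CPM, at 1.06-fold that floor, so the difference between those libraries was not detectable at this depth. The 84 UMIs on day 2 came from 4 macrophages, which held 55, 10, 10 and 9. The day 7 level was 23.7-fold that of day 2, a log2 ratio of 4.47 (4.18 to 4.78), and without the top cell of each library the day 2 level was 4.79 CPM and the day 7 level 316 CPM.

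**Figure D1:**
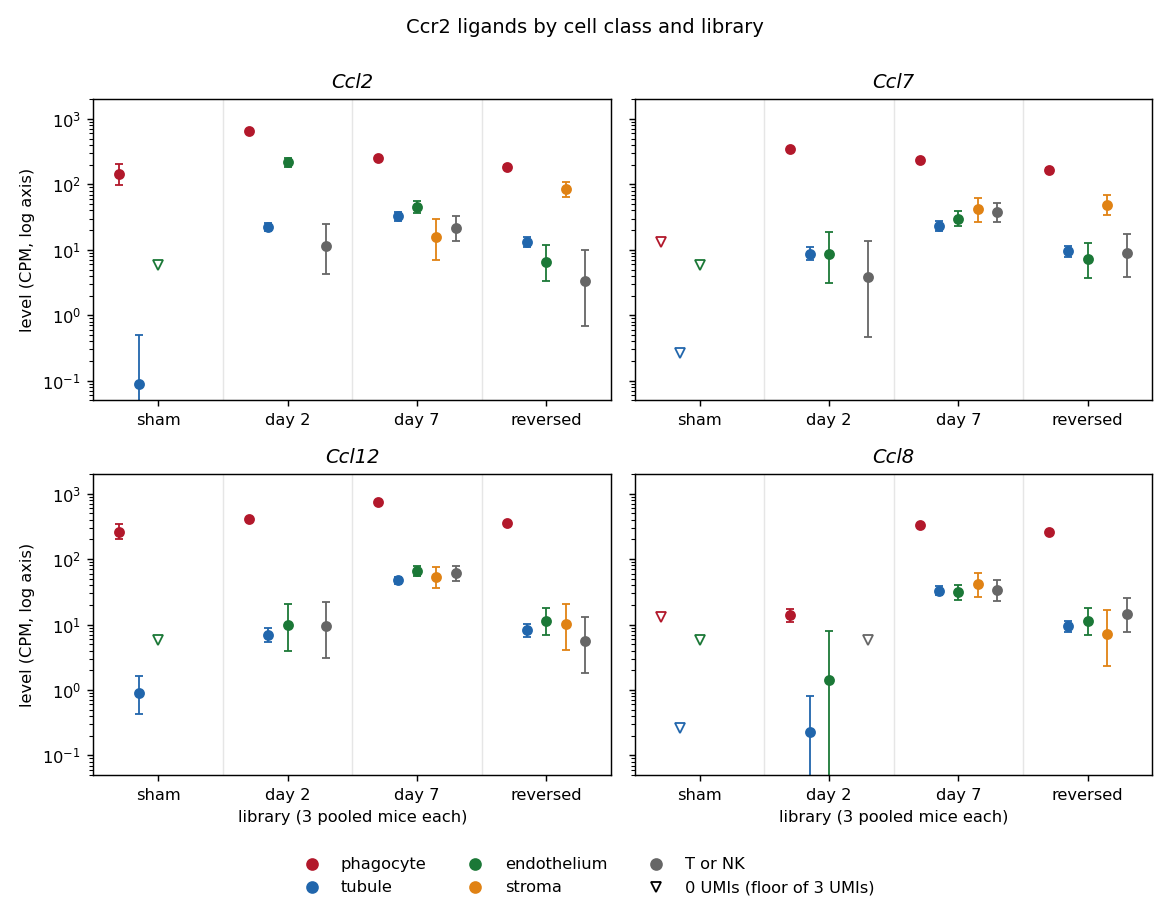
Level of each ligand in CPM (log axis) by library, for phagocytes, tubule, endothelium, stroma, and T or NK cells, with exact Poisson 95% intervals; open triangles mark 0 UMIs, drawn at the floor of 3 UMIs, and classes under 30 cells are left out. Phagocytes are the highest of the classes drawn for each ligand in each library where they have a UMI, with Ccl2 and Ccl7 highest on day 2 (661 and 343 CPM) and Ccl12 and Ccl8 on day 7 (748 and 328 CPM).

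Counted against all genes, the ligands in phagocytes were as follows, where a gene counts as higher or lower past 2-fold on the log2(CPM + 1) scale among genes with at least 10 UMIs over the pair of libraries. Between sham and day 2, 3 of 4 ligands (Ccl2, Ccl7 and Ccl8) were higher against a background of 24.1% of 11080 genes, in a comparison that rests on 61 sham cells, and none was lower against 11.3%. Read at the sham floor, Ccl8 dropped out and 2 of 4 stayed. The median log2 ratio of the 4 was 3.04, or 1.41 with the genes at 0 in sham read at the floor, beside 0.17 for all genes. Between day 2 and day 7 the ligands split: Ccl8 was higher (background 7.41%), Ccl2 was lower (background 2.24%), and Ccl7 and Ccl12 stayed within 2-fold. When every cell weighed the same, Ccl12 was also higher past 2-fold, at a log2 ratio of 1.23. The median of the 4, 0.18, lay close to the 0.11 of all genes.

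From day 7 to the reversed library no ligand was higher (background 2.18%), and Ccl12 was lower past 2-fold against a background of 0.881% of 13740 genes. The other 3 ligands stayed within 2-fold, with log2 ratios of -0.48 for Ccl2, -0.51 for Ccl7 and -0.36 for Ccl8, and the median of the 4 was -0.50 beside -0.01 for all genes. The ligands had not returned to the sham pattern 7 days after release: Ccl7 and Ccl8 were higher than in sham (background 26.0%), at least 12.6-fold and 19.5-fold at the floor, and none was lower (background 6.67%). Ccl2 and Ccl12 stayed within 2-fold of sham over all phagocytes, at log2 ratios of 0.34 (-0.16 to 0.88) and 0.44 (0.07 to 0.84), and the second interval does not take in 0. The Ccl2 ratio rests on the 2 sham dendritic cells that held 30 of its 33 sham UMIs. In macrophages Ccl2 had 884 UMIs after reversal against 0 in sham, 8.23-fold the sham floor (lower limit of the log2 ratio 2.71). These comparisons share libraries: day 2 and day 7 each enter 2 of them, and so do sham and the reversed library. The call on Ccl12 after reversal ended under a stricter gate lead of 0.3 and when every cell weighed the same. It also ended in macrophages alone, at a log2 ratio of -0.87 (-0.94 to -0.79). Macrophages were 2117 of 2426 phagocytes on day 7 and 487 of 624 after reversal.

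Within phagocytes the macrophage subset, gated on C1q, Apoe, Mrc1 and similar genes, was the main source. Its part of the class differed: 32 of 61 phagocytes in sham, 294 of 549 on day 2, 2117 of 2426 on day 7 and 487 of 624 after reversal. Macrophages held 908 CPM of Ccl2 on day 2, 293 on day 7 and 240 after reversal. For Ccl7 the macrophage levels were 532, 272 and 219 CPM in the same order, and for Ccl8 they were 22.7, 380 and 338 CPM. In sham, 32 macrophages held 0 UMIs of each of these 3, and their Ccl12 was at 584 CPM (445 to 751). That Ccl12 level rested on few cells, as 4 of the 32 held 66.7% of its UMIs. Ccl12 in macrophages then stood at 619 CPM (594 to 645) on day 2, 868 (853 to 883) on day 7 and 476 (454 to 499) after reversal. Sham and day 2 did not differ beyond counting error for Ccl12, with a log2 ratio of 0.08 (-0.28 to 0.48), and neither did sham and the reversed library, at -0.29 (-0.67 to 0.10). Day 7 over day 2 was at 0.49 (0.42 to 0.55), smaller than over all phagocytes.

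Monocytes, the cells that Ccr2 recruits, were a second source on day 2 mainly for Ccl2. There the 151 gated monocytes held 385 CPM of Ccl2 (352 to 421), 59.8 of Ccl7, 102 of Ccl12 and 0 UMIs of Ccl8. By day 7 the monocytes were down to 61.0 CPM of Ccl2, a log2 ratio of -2.64 (-3.08 to -2.22) to day 2. The other 3 ligands in day 7 monocytes, at 37.4 to 92.1 CPM, had intervals that overlapped those of T or NK cells in that library. After reversal 34 monocytes held 6 UMIs of Ccl2, 2 of Ccl8 and 0 of the other ligands. Dendritic cells held 7.81 to 15.6 CPM of Ccl2, Ccl7 and Ccl12 on day 2, also within the reach of the lymphocyte levels.

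**Figure D2:**
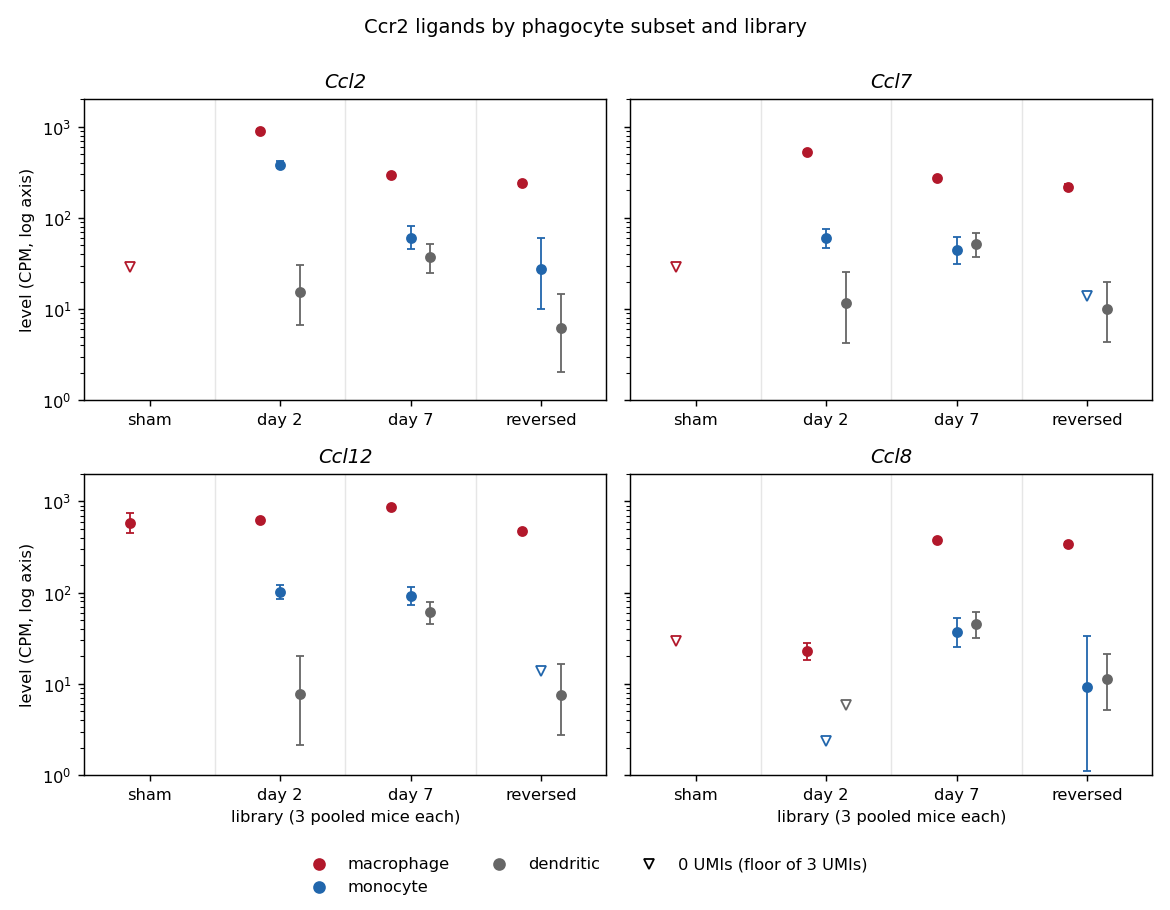
Level of each ligand in CPM (log axis) in macrophages, monocytes and dendritic cells of the phagocyte gate, with exact Poisson 95% intervals; open triangles mark 0 UMIs at the floor of 3 UMIs, and subsets under 30 cells are left out. Macrophages are highest in each panel, with monocyte Ccl2 on day 2 (385 CPM) the main level outside them.

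The UMIs of each ligand were concentrated in some of the macrophages, although 86.0% of those on day 7 held a UMI of at least 1 ligand. That share was 46.6% in endothelium, 56.0% in tubule and 66.2% in stroma of the same library. With cells thinned to 1000 UMIs the shares were 50.9% of macrophages, 14.6% in endothelium, 12.2% in tubule and 16.2% in stroma. On day 7, 50% of the Ccl8 UMIs of 2117 macrophages lay in 27 cells, against 80 cells for Ccl7, 98 for Ccl2 and 136 for Ccl12. On day 2, 50% of the Ccl2 UMIs of 294 macrophages lay in 18 cells, with up to 163 UMIs in 1 cell. The tenth of macrophages with the most UMIs held 61.8% to 89.2% of a ligand's UMIs on day 7 and after reversal. The Poisson intervals do not cover this unevenness from cell to cell, so they are narrower than the spread between samples of cells would be.

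Pairs of Ccl2, Ccl7 and Ccl12 were found in the same macrophages more often than each was found in all macrophages. Ccl8 did so on day 7. With every cell thinned to 1000 UMIs, 332 of 2117 day 7 macrophages held Ccl7, and of these 57.2% (51.7% to 62.6%) also held Ccl12, which 32.9% of all macrophages did. Of the same 332 cells, 35.2% (30.1% to 40.6%) held Ccl2, against 17.5% of all. On day 2 the Ccl7 cells held Ccl2 and Ccl12 at 56.6% each, against 29.6% and 25.5% of all macrophages. Of the 287 macrophages with Ccl8 on day 7, 42.5% (36.7% to 48.5%) held Ccl12, an interval below that of the Ccl7 cells, and 27.2% (22.1% to 32.7%) held Ccl7, against 15.7% of all. After reversal, 27.9% (17.7% to 40.1%) of the 68 Ccl8 cells held Ccl12, and 13.2% (6.23% to 23.6%) held Ccl7. Those intervals take in the shares of all macrophages, 19.1% for Ccl12 and 9.03% for Ccl7. Without thinning, 136 reversed macrophages held Ccl8, and of these 57.4% (48.6% to 65.8%) held Ccl12 and 39.0% (30.7% to 47.7%) held Ccl7, above the 44.4% and 24.0% of all. All 4 ligands were held by 20 of 2117 macrophages on day 7 and 4 of 487 after reversal when thinned to 1000 UMIs, and by 223 and 31 of them without thinning.

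The receptor Ccr2 ran lower in macrophages that carried Ccl8, and in some libraries in those that carried another ligand. On day 7 macrophages with a thinned Ccl8 UMI held 558 CPM of Ccr2 (524 to 593), against 803 (787 to 819) in those without. After reversal the values were 335 (285 to 390) and 689 (660 to 718), and neither pair of intervals overlapped. For Ccl7 the values were 572 and 635 CPM on day 2, which overlapped, and 613 and 800 on day 7 and 514 and 652 after reversal, which did not. For Ccl12 the values with and without were 550 and 650 CPM on day 2, 770 and 772 on day 7, and 489 and 670 after reversal, and the day 7 intervals overlapped. For Ccl2 they were 649 and 609, 716 and 783, and 605 and 647 CPM in that order, and the day 7 intervals did not overlap. Lower Ccr2 was thus not limited to Ccl8 cells. The C1q chains together ran the other way on day 7 and after reversal for each ligand: with Ccl8 they were at 14372 CPM against 10860 without on day 7, and at 15462 against 10156 after reversal. Ccr2 is 1 of the 10 monocyte markers and the C1q chains are 3 of the 10 macrophage markers of the subset gate, and the median depth of cells with and without Ccl8 was 5802 and 6413.5 UMIs on day 7. These cells come from 1 library each, so the values describe those libraries.

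**Figure D3:**
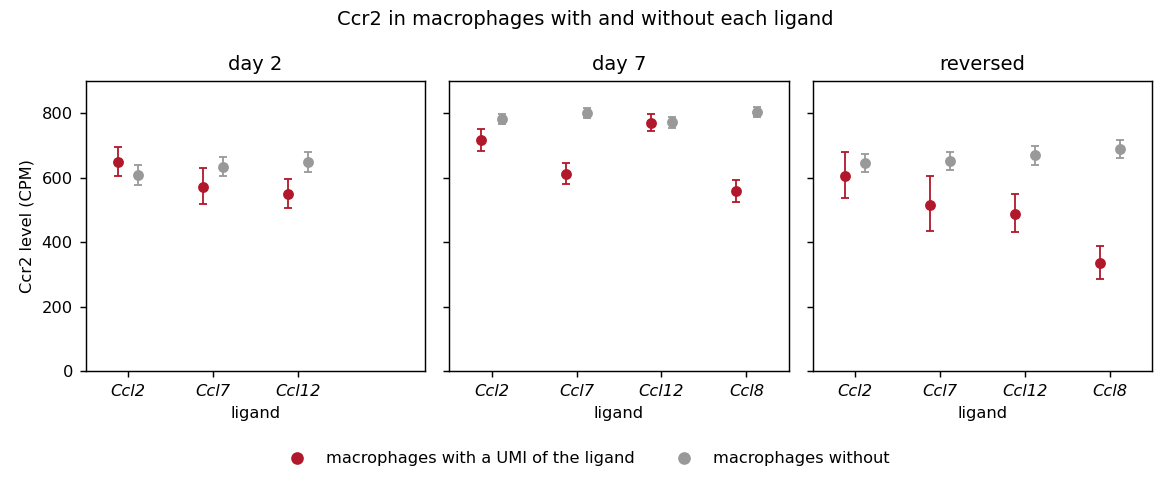
Ccr2 level in CPM in gated macrophages with (red) and without (grey) a UMI of each ligand after thinning to 1000 UMIs, per library, with exact Poisson 95% intervals; groups under 30 cells are left out. The widest gap is for Ccl8 after reversal, 335 against 689 CPM.

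Outside phagocytes, most ligand levels lay close together across classes within a library. On day 7 Ccl12 stood at 47.1 CPM in tubule, 66.2 in endothelium, 53.4 in stroma and 61.5 in T or NK cells, with intervals that overlapped for the last 3. Ccl8 stood at 33.0, 31.0, 41.3 and 33.3 CPM in the same classes, all overlapping. The C1q RNA of those classes was 8.40% to 10.3% of the phagocyte level, and the same fraction of the phagocyte ligand level would give 62.8 to 77.3 CPM of Ccl12 and 27.6 to 34.0 CPM of Ccl8. In thinned cells, Ccl12 was found in 4.41% to 5.79% of tubule, endothelial and stromal cells, against 6.17% (3.50% to 9.98%) of T or NK cells and 29.7% of phagocytes. Without thinning these were 23.8% to 35.3%, 20.6% and 62.5%, at median depths of 3347 UMIs for T or NK cells and 6490 for phagocytes. None of the 3 classes was above the T or NK cells in its thinned share.

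The ligands also passed 2-fold in tubule and endothelium. In tubule, 3 of 3 ligands that passed the minimum were higher on day 2 than in sham (background 21% of 13638 genes), 3 of 4 were higher on day 7 than on day 2 (background 7.34%), 4 of 4 were lower after reversal than on day 7 (background 5.80%), and 4 of 4 were higher after reversal than in sham (background 20%). No tubule ligand went the other way in these steps (backgrounds 3.69%, 1.19%, 3.64% and 0.360%). In endothelium, Ccl2, the 1 ligand that passed, was higher on day 2 than in sham (background 6.86%), while 3 of 4 were higher on day 7 than on day 2 (background 9.64%) and Ccl2 was lower (background 4.23%). After release, endothelium had 4 of 4 lower than on day 7 (background 3.05%) and 4 of 4 higher than in sham (background 11.9%), where none of the 4 passed 2-fold at the sham floor. No endothelial ligand was lower on day 2 (background 7.03%), higher after reversal than on day 7 (3.78%) or lower than in sham (4.28%). The median ligand log2 ratios were 1.96 in tubule and 2.16 in endothelium from day 2 to day 7, beside 0.22 and 0.06 for all genes, and -1.48 and -2.17 after reversal, beside -0.29 and 0.03. The C1q level as a share of that in phagocytes was 2.44% on day 2, 8.40% on day 7 and 3.19% after reversal in tubule, and 2.48%, 9.81% and 3.41% in endothelium, where Ccl2 went the other way from day 2 to day 7. Subtracting this fraction left 1 of 3 tubule ligands higher on day 2 and 1 of 4 lower after reversal than on day 7, and in endothelium 1 higher on day 7, 2 lower after reversal and 0 higher than in sham. Mitochondrial UMIs count in the CPM total. Their median share in tubule cells was 34.9% for sham, 20.9% and 12.0% in the day 2 and day 7 libraries, and 28.04% in the reversed library. Their part in these ratios was not tested beyond the setting that follows. With cells of up to 20% mitochondrial UMIs, 2 of 4 tubule ligands, Ccl12 and Ccl8, were lower after reversal than on day 7. A pseudocount of 10 CPM left 1 of 3 tubule ligands higher on day 2, 2 of 4 lower after reversal than on day 7 and 1 of 4 higher after reversal than in sham. With TMM scaling, which moved tubule ratios by -0.51, -0.36, 0.35 and -0.52 in the order of the 4 comparisons, 2 rather than 4 ligands were lower in tubule after reversal.

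Ccl2 in endothelium on day 2 stood above the C1q fraction and the T or NK cells. The 152 endothelial cells held 152 Ccl2 UMIs at 216 CPM (183 to 254), against 16.4 CPM from the C1q fraction and 11.5 CPM (4.22 to 25.0) in T or NK cells. Ccl7 and Ccl12 in the same cells were at 8.54 and 9.96 CPM, beside 8.51 and 10.1 CPM from the C1q fraction. Ccl2 thus made up 91.6% (86.3% to 95.3%) of the 166 ligand UMIs in endothelium and 46.5% of those in phagocytes. In sham, 203 endothelial cells held 0 UMIs of each ligand, and Ccl2 on day 2 was 37.4-fold the sham floor (lower limit of the log2 ratio 4.72). The level rested on few cells: 3 cells held 92.1% of the UMIs, 1 of them 84, and without that cell it was 97.4 CPM. In thinned cells 2.63% of endothelial cells held Ccl2 (7.89% without thinning), beside 2.40% of T or NK cells, so the share of cells did not stand apart. By day 7 endothelial Ccl2 was at 45.5 CPM (36.5 to 56.0), against 25.0 CPM from the C1q fraction and 21.9 CPM (13.5 to 33.4) in T or NK cells, and it was 34.7 CPM without the top cell. After reversal it was at 6.63 CPM. Tubule Ccl2 after reversal was also above both, at 13.3 CPM (11.1 to 15.7) against 5.82 CPM from the C1q fraction and 3.37 CPM (0.695 to 9.86) in T or NK cells. That rested on 1 cell: without the top cell it was 8.79 CPM, inside the T or NK interval.

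Stroma after reversal also stood above the C1q fraction and the T or NK cells, for Ccl2 mostly through 2 cells and for Ccl7 through 1 cell. Its 90 cells held 58 Ccl2 UMIs at 83.5 CPM (63.4 to 108) and 34 Ccl7 UMIs at 49.0 CPM (33.9 to 68.4), against 5.59 and 5.07 CPM from the C1q fraction. T or NK cells of that library were at 3.37 CPM (0.695 to 9.86) of Ccl2 and 8.99 CPM (3.88 to 17.7) of Ccl7. Ccl12 and Ccl8 in those cells were at 10.1 and 7.20 CPM, beside 10.9 and 7.81 CPM from that fraction. From day 7 to reversal, Ccl2 was higher in stroma by 2.36 (1.38 to 3.46), 1 of 4 ligands past 2-fold upward (background 12.6% of 9881 genes), and Ccl12 and Ccl8 were lower past 2-fold (background 7.38%). The median of the 4 was -1.03 beside 0.15 for all genes. A single cell, with 60.0% of the stromal and 41.7% of the phagocyte markers, held 29 of the Ccl2 and 23 of the Ccl7 UMIs. Without the top cell the levels were 42.4 and 16.1 CPM, the second inside the T or NK interval. A second cell held 24 of the Ccl2 UMIs and 3 of the Ccl7 UMIs, so most of the stromal Ccl2 lay in 2 of 90 cells. With the C1q fraction subtracted, 2 ligands were higher and 0 lower after reversal. In sham 17 stromal cells held 0 UMIs of the 4 ligands, and on day 2 15 cells held 1 of Ccl2 and 1 of Ccl8.

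**Figure D4:**
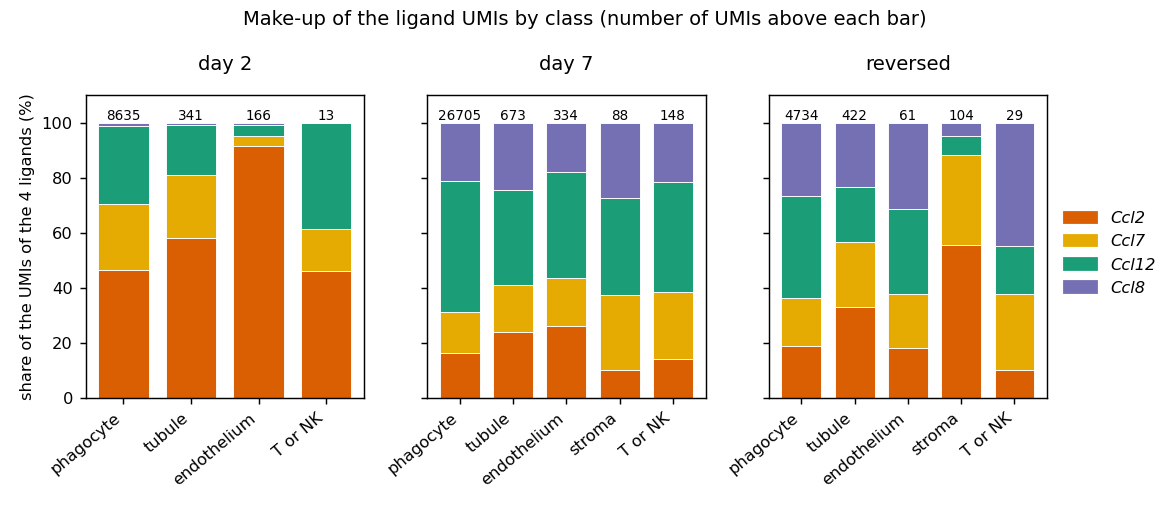
Share of each ligand among the UMIs of the 4 ligands (%), by class for day 2, day 7 and the reversed library, with the number of UMIs above each bar; classes under 30 cells are left out. On day 7 Ccl12 is the largest share in each class (34.6% to 47.7%), while endothelium on day 2 (91.6% Ccl2) and stroma after reversal (55.8% Ccl2) differ from the phagocytes of their library (46.5% and 19.0%).

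High single cells outside the phagocyte gate held Ccl12 less often than phagocytes as high in Ccl2. With a minimum of 20 UMIs, chosen after the values were seen, 15 such cells were found, 14 high for Ccl2 and 1 for Ccl12. Of the 14 Ccl2 cells, 9 held Ccl7 as well, 1 held Ccl12 and 2 held Ccl8, and their Ccl2 summed to 839 UMIs against 2 of Ccl12. Of the 96 phagocytes with as much Ccl2, 91.7% (84.2% to 96.3%) held Ccl12, with 2693 UMIs of it, against 7.14% (0.181% to 33.9%) of the 14 cells. For Ccl7 the shares were 82.3% (73.2% to 89.3%) of the phagocytes and 64.3% (35.1% to 87.2%) of the 14 cells. For Ccl8 they were 21.9% (14.1% to 31.5%) and 14.3% (1.78% to 42.8%), so the intervals overlapped for both. These shares depend on the mix of libraries: day 2 gave 57 of the 96 phagocytes and 3 of the 14 cells. On day 2, day 7 and after reversal, 50 of 57, 29 of 30 and 9 of 9 phagocytes held Ccl12. The other cells held it in 0 of 3, 1 of 5 and 0 of 6. For Ccl7 the counts were 46, 25 and 8 phagocytes and 1, 2 and 6 other cells. For Ccl8 they were 0, 18 and 3 phagocytes and 0, 2 and 0 other cells. Median depth was 10979.5 UMIs in the 14 cells and 12177 in the phagocytes.

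The highest of these cells were spread over classes. On day 2 they were 2 endothelial cells with 84 and 51 Ccl2 UMIs, each with 91.7% of the endothelial markers and 0 or 1 C1q UMIs, and a tubule cell with 128 Ccl2 and 10 Ccl7 UMIs, 80.0% of the general epithelial markers and 2 C1q UMIs. After reversal an ungated cell held 228 Ccl2 and 16 Ccl7 UMIs with 50% of the stromal, 41.7% of the phagocyte and 40% of the tubule markers, and 6 C1q UMIs. A second ungated cell held 84 Ccl2 UMIs with 60.0% of both stromal and tubule markers. No cell of this kind was found in sham.

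**Figure D5:**
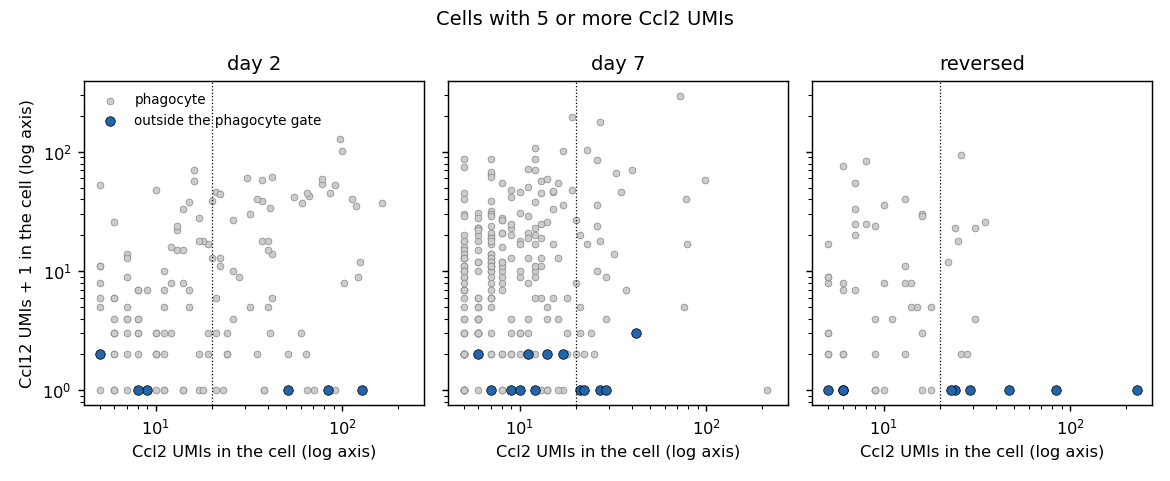
Ccl12 UMIs plus 1 against Ccl2 UMIs (both log axes) in each cell with 5 or more Ccl2 UMIs, phagocytes in grey and all other cells in blue, for the 3 libraries after obstruction; the dotted line marks 20 Ccl2 UMIs. To its right, 88 of 96 phagocytes and 1 of 14 other cells hold Ccl12.

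Of the 8 receptors and scavengers listed for these ligands, 4 passed the minimum of UMIs in phagocytes in each comparison. Ccr2 itself stayed within 2-fold, with 822, 667, 772 and 645 CPM in time order, and stood at 962 to 1305 CPM in monocytes of the 3 later libraries, a subset gated in part on Ccr2 itself. Ccr1, a second receptor of Ccl7, went with Ccl7 and Ccl2, at 39.3, 177, 79.0 and 50.9 CPM in time order. It was the 1 of 4 higher on day 2, at a log2 ratio of 2.14 (1.23 to 3.23), a count close to the 24.1% of all genes. It was also the 1 of 4 lower on day 7, at -1.15 (-1.27 to -1.04), against 2.24% of all genes. Ccrl2, a non-signalling receptor, was the 1 of 4 higher after reversal than in sham (158 against 61.2 CPM), a count close to the 26.0% of all genes. In endothelium 3 passed the minimum on day 2 against sham. Ccrl2 was lower there (89.7 against 347 CPM, background 7.03%), and Ccr2 and Ackr2, with 10 and 8 UMIs on day 2, were higher (background 6.86%). The scavenger Ackr2, which clears inflammatory chemokines, had 0 UMIs in phagocytes in each library and 2, 8, 11 and 14 UMIs in endothelium.

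Among 13 cytokines and receptors known to induce the ligands, 5 of the 10 that passed were higher in phagocytes on day 2 than in sham and 0 were lower (24.1% and 11.3% of all genes). Il1b, the interleukin-1 beta gene, had levels of 192, 483, 495 and 667 CPM in time order, so unlike Ccl2 it was not lower on day 7 than on day 2. The other 4 (Il1a, Il6, Tnfsf12 and Tnfrsf12a) rested on 0 or 1 sham UMI each. From day 2 to day 7, 0 of 12 passed 2-fold in either direction, where 7.41% of all genes were higher and 2.24% lower. After reversal 3 of 12 were higher than on day 7 (2.18% of all genes), Tnf at 54.2 against 26.5 CPM, Il1a at 10.3 against 2.82 CPM and Il6 at 5.07 against 1.82 CPM. The list medians were 1.08, 0.05 and 0.08 over the 3 steps, beside 0.17, 0.11 and -0.01 for all genes.

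Of the 12 regulators listed for the ligand genes, 3 were higher in phagocytes on day 2 than in sham, close to the 24.1% of all genes, and 3 were lower, against 11.3%. On day 2, Nfkb2 and Nfkbia of the NF-kB pathway and Fos of AP-1 were higher than in sham, and the interferon regulatory factors Irf1 and Irf7 were lower, while 6 of the 12 stayed within 2-fold. Nfkbia was at 236, 505, 415 and 598 CPM and Fos at 223, 556, 469 and 1017 CPM over sham, day 2, day 7 and reversal. Irf7 was at 140, 69.1, 224 and 112 CPM in that order, higher on day 7 than on day 2 (log2 ratio 1.68, 1.54 to 1.83). Irf7 and Ccl12 thus both had their highest level on day 7. The list medians were 0.00 on day 2, 0.26 on day 7 and 0.16 after reversal over the library before. The lists were drawn up with earlier results of these data known.

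The genes whose log2(CPM + 1) over 17 class and library sums ran most like each ligand were named by the highest Pearson correlation among 6438 genes. For Ccl2 they were Lpcat2 (r = 0.87), Il1b (0.87) and Pilra (0.87). In phagocytes Pilra was highest on day 2, at 222 CPM, as Ccl2 was. Lpcat2 and Il1b were not, at 87.7 and 483 CPM on day 2 and 128 and 495 CPM on day 7. The sums span classes as well as libraries, so a high r need not mean the same course over time. For Ccl7 they were Ccl17 (0.97), Ccl22 (0.89) and Clec4n (0.89), of which both chemokines had 0 UMIs in sham phagocytes. For Ccl12 they were Clec4a2 (0.99), Ccl9 (0.98) and Fcgr1 (0.98), genes of phagocytes in general, and for Ccl8 they were Fcrls (0.91), Retnla (0.88) and Ccl22 (0.86). Haemoglobin genes, markers of red cells, took 4 of the next 6 places for Ccl8: Hbb-bs (0.86) stood at 8.74, 9.40, 1049 and 89.3 CPM in phagocytes in time order, and its part in the likeness was not tested. Among the ligands themselves, r was 0.83 for Ccl7 with Ccl8 and 0.82 for Ccl2 with Ccl12, and lowest at 0.43 for Ccl2 with Ccl8. The 17 sums share 4 libraries and may share free RNA, which was not measured, so these values describe likeness only.

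The Smart-seq2 wells gave a deeper look at single phagocytes, with no time point per well. Of 542 wells kept, with a median of 258908 reads, 532 passed the phagocyte gate. The subset markers put 526 of these in the macrophage subset and 1 in the monocyte subset. A marker counted as detected at any read, and 97.3% of the 526 wells held Ccr2, a monocyte marker, at 1 CPM or more. Monocytes may thus be among these wells, which was not tested. At 1 read CPM or more, Ccl2 was found in 74.7% (70.8% to 78.4%) of the 526 wells, Ccl12 in 73.8% (69.8% to 77.5%), Ccl7 in 58.2% (53.8% to 62.4%) and Ccl8 in 40.1% (35.9% to 44.4%). The median level was 15.6, 17.0, 3.34 and 0 CPM in the same order, and the top well reached 38589, 7967, 11020 and 22397 CPM. At 100 CPM or more the shares were 32.7% for Ccl2, 34.8% for Ccl12, 21.7% for Ccl7 and 14.3% for Ccl8. At 100 CPM or more, 80.7% (72.3% to 87.5%) of the 114 Ccl7 wells also held Ccl12, which 34.8% of all wells did, and 78.9% (70.3% to 86.0%) held Ccl2, which 32.7% did. Ccl8 at that level was found in 14.3% of wells, and in 25.6% (19.2% to 32.8%) of Ccl2 wells. The counts are reads without molecular identifiers from 1 sample, so the intervals cover the sampling of wells only.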

How the data were processed

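The deposited droplet files hold raw UMI counts per gene and cell, and the Smart-seq2 file, also as deposited, holds raw counts of reads for every gene in every well. The submitters' processing notes name Cell Ranger, STAR and the builds GRCm38 and mm10. Which tool served which file, the versions and the annotation are not given in the sources used here.

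A cell was kept if it had 200 or more genes and no more than 50% of its UMIs were mitochondrial, and the second limit left out 54 to 1607 cells per library. Scrublet (scanpy 1.11.5) called 0 to 25 doublets with its automatic threshold, which was taken as not having worked, so the top-scoring 48 to 187 cells of a library were taken out instead, a rate of 0.8% for every 1000 cells deposited. A cell took the class with the highest share of markers detected if at least 3 were detected and it led the next class by 0.15. Ungated cells numbered 47, 74, 415 and 171 over sham, day 2, day 7 and reversal. Cells near the cut (a lead of 0.10 to 0.20) numbered 6, 3, 35 and 30 among phagocytes and up to 92 of 243 among day 7 T or NK cells. Phagocytes took the subset with the highest share of its markers.

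UMIs were summed per class and library and divided by the class total (CPM). Log2 ratios used a pseudocount of 1 CPM, with exact conditional binomial intervals. Levels have exact Poisson and shares exact Clopper-Pearson intervals at 95%, all for counting error only. The floor is 3 UMIs per class and library. A class under 30 cells in a library is given by UMIs. The C1q fraction is the summed C1qa, C1qb and C1qc CPM of a class over that of the phagocytes in its library. Smart-seq2 wells with at least 1000 genes and 10000 reads were kept, limits chosen after the table was seen. With 1 library per condition no count model was fitted. edgeR 4.0.16 (TMM) and DESeq2 1.42.0 gave scaling factors for the alternatives. The ratio and its interval were tested on simulated data, where unchanged genes with few UMIs also passed 2-fold at the depth of the sham phagocytes, so counts against sham are read only beside their background. Python 3.11.15, scipy 1.17.1 and R 4.3.3 were used.

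The genes named are the 4 ligands, the marker and pathway lists, and for each ligand the 3 genes with the most similar level over class and library sums, among genes with at least 50 CPM in 1 sum. The members and lists were chosen with earlier results of these data known. Some members of these lists are not reported here.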

Additional observations from a re-analysis of the deposited data

Results flagged for a closer look

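Ligand ratios that pointed in opposite directions in different classes, with counting intervals on opposite sides of 0, were found in 3 places; the difference between classes was not tested. From day 2 to day 7, Ccl2 had a log2 ratio of -1.37 in phagocytes and -2.22 in endothelium and 0.54 in tubule. In tubule 128 of the 199 day 2 UMIs of Ccl2 were in 1 cell, and the C1q level there moved from 2.44% to 8.40% of that in phagocytes. Over the same step Ccl7 was at -0.53 in phagocytes, 1.32 in tubule and 1.70 in endothelium. From day 7 to the reversed library, Ccl2 was at -0.48 in phagocytes, -1.24 in tubule and -2.61 in endothelium and at 2.36 in stroma, where 29 of 58 UMIs were in 1 cell.

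Cells with no clear leading class entered no comparison between libraries. In 4 cases the whole interval of their ligand level lay above the interval of the sham ungated cells. Their Ccl2 level was 61.9 CPM on day 7, and 261 CPM in the reversed library, against 0 UMIs in sham, and the second value was 84.8 CPM without the cell that held 228 of its 336 UMIs. Ccl12 was at 71.8 CPM and Ccl8 at 40.3 CPM on day 7, against 22.3 and 5.58 CPM in sham, and the C1q level of the day 7 ungated cells was 981 CPM.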

How the results depend on the processing

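Of the alternative values for counts of ligands past 2-fold, 260 of 278 stayed within 1.5 times the main count. In phagocytes, 2 rather than 1 ligands were higher on day 7 than on day 2 when every cell weighed the same, and 0 rather than 1 were lower after reversal than on day 7 under that setting and with a gate lead of 0.3. With C1q carry-over subtracted, the tubule had 1 rather than 3 ligands higher on day 2 against sham, and 1 rather than 4 lower after reversal than on day 7. In endothelium that subtraction left 1 of 3 higher on day 7 than on day 2, 2 of 4 lower after reversal than on day 7 and 0 of 4 higher than in sham, and in stroma it gave 2 rather than 1 higher and 0 rather than 2 lower after reversal. A pseudocount of 10 CPM left 1 of 3 tubule ligands higher on day 2, 2 of 4 lower after reversal than on day 7, 1 of 4 higher than in sham, and 2 of 4 in endothelium higher than in sham. Keeping cells with up to 20% mitochondrial UMIs, TMM factors and DESeq2 factors each left 2 of 4 tubule ligands lower after reversal. With no minimum of UMIs, 4 rather than 1 endothelial ligands were higher on day 2 than in sham. Subtraction of carry-over also reversed 3 ratios: Ccl7 in tubule after reversal over day 7 went from -1.20 to 0.27, and Ccl8 in endothelium went from 3.72 to -1.06 on day 7 over day 2 and from -1.36 to 1.90 after reversal over day 7. The share of ligand UMIs from phagocytes became, with carry-over subtracted, 98.9% (sham), 97.7% (day 2), 98.8% (day 7) and 89.1% (reversed). It became 63.3% in sham and 91.7% on day 7 with a gate lead of 0.3, 94.1% on day 7 with any lead above 0, and 94.97%, 93.9% and 84.9% on day 2, day 7 and after reversal with up to 20% mitochondrial UMIs. With no doublets removed it was 91.7% on day 7 and 80.5% after reversal. Without the top cell of each ligand, class and library, an alternative added after seeing the data, it was 96.5%, 93.9% and 87.5% on day 2, day 7 and after reversal. The cause of these shifts was not tested. Of the log2 ratios, 352 of 480 alternative values stayed in the main interval, 125 moved and 3 reversed. Of the CPM values 78 of 320 moved, of the shares of UMIs 15 of 24, and of the shares of cells with a UMI 64 of 112, 39 of them without thinning and 25 with cells thinned to 2000 UMIs. No paired analysis was possible because each condition has 1 library and the labels give no replicate numbers.

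The limits are the number of libraries and the sham phagocytes. With 61 cells, a ligand at 0 UMIs in sham phagocytes could be at up to 16.1 CPM by its exact interval, and no spread between mice can be given.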

Other observations

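On day 7, tubule Ccl12 was at 51.1 CPM (39.2 to 65.5) in proximal tubule cells, 45.9 (26.3 to 74.6) in loop cells, 56.5 (37.5 to 81.6) in collecting duct principal cells and 46.1 (38.0 to 55.4) in cells led by general epithelial markers, all overlapping. On day 2, 149 of the 199 tubule Ccl2 UMIs lay in the general epithelial cells, 128 of them in 1 cell, and 35 in 610 proximal tubule cells at 10.5 CPM (7.34 to 14.7).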
